A study of Mus musculus with 23 samples.

Results

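The interferon-stimulated genes described here were a list of 43 genes chosen by symbol, and every probe annotated to one of these symbols was followed in 3 arterial beds of mice with or without angiotensin II (AngII). The members were chosen with earlier results of these data known, so the counts below describe the list and give no independent support for a change. The list held 4 transcription factors, 6 sensors and double-stranded RNA enzymes, 3 IFIT proteins, 5 OAS and MX proteins, 2 genes of the ISG15 pathway, 7 other antiviral effectors, 5 guanylate-binding proteins and immunity-related GTPases, 3 genes of antigen processing, and 8 ADP-ribosyl transferases and other members. Of the 43 members, 42 were named by at least 1 probe, on a chip that named 19057 genes. A tested probe, one with a detection p-value under 0.01 on at least 3 of the 23 arrays, was available for 36 members, among 10955 genes tested. Ifih1, Ifit1, Oas1a, Mx1, Iigp1 and Xaf1 had probes that passed detection on no array, and Ifi44 was not analysed here. Each gene was represented by its tested probe with the highest mean signal, and 14 members had more than 1 tested probe. The 36 tested members were therefore those with signal in at least one vessel, and counts over them describe those genes and not the whole list.

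The arrays were hybridized with RNA from the thoracic aorta, the abdominal aorta and higher-order branches of the superior mesenteric artery of male C57BL/6J mice. From 12 weeks of age, the mice were infused with AngII at 490 ng/kg/min or with its vehicle (Sham) for 14 days by osmotic minipump, and no group carried a genetic change. Each array held the pooled RNA of 2 vessels of the same kind and treatment, which gave 3 AngII and 3 Sham arrays of thoracic aorta, 3 and 3 of abdominal aorta, and 6 and 5 of mesenteric arteries. Arrays are numbered within a group only to name them. The paper used fewer mice than the pools held vessels, so some pools of different vessels share animals. The labels do not tie pools to mice, so arrays of different vessels were treated as independent. P-values between vessels therefore leave this sharing out of account.

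Between 17432 and 18657 probes of 45281 passed detection on an array. The smooth muscle markers Acta2 and Myh11 passed on all 23 arrays, with group means of 14.31 to 14.47 and 13.07 to 13.65 log2 units. Mesenteric AngII arrays 1 and 2 and mesenteric Sham array 1 were rich in pancreatic transcripts (Try4 at 14.04, 12.37 and 14.01 log2 units) and abdominal Sham array 1 in skeletal muscle transcripts (Acta1 at 11.19). The main values include these 4 arrays, and values without them stand beside the comparisons that use them. In whole-vessel RNA, fewer cells of a type and less RNA per cell cannot be told apart.

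Interferons are secreted cytokines that bind receptors on nearly all cells and, through Janus kinases and STAT proteins, switch on a common set of genes. Type I interferons act mainly through a complex of STAT proteins with Irf9 that binds the interferon-stimulated response element, whereas interferon gamma acts mainly through the gamma-activated site. The products sense foreign nucleic acid, block steps of viral replication, load peptides for presentation to T cells, and in the case of Usp18 shut the receptor off again. In the vessel wall, endothelial cells, smooth muscle cells, fibroblasts and macrophages can all respond to interferon.

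RefSeq promoter windows (assembly GRCm38.p6, from 250 bases before to 50 bases after each transcription start) were available for 33 of the 43 members, and 7 of them are shown: those of the 6 members with the smallest p-values under AngII in the thoracic aorta that hold the core of the response element, and that of the member with the smallest p-value that lacks it. The core was searched on both strands as GAAA, any 2 bases and GAAA, and is printed in capitals. Each window reads 5′ to 3′ along the gene. Ifitm3 did not pass in the thoracic aorta, and the other 6 members shown did.
Rsad2 (chr12:26456403-26456702, minus strand): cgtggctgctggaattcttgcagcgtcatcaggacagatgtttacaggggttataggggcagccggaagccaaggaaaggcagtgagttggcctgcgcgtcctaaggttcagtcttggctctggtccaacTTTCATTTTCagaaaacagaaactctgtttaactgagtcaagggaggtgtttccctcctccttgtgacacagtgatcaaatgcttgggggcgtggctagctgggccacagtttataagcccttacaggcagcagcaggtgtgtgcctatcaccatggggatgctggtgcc
Isg15 (chr4:156200769-156201068, minus strand): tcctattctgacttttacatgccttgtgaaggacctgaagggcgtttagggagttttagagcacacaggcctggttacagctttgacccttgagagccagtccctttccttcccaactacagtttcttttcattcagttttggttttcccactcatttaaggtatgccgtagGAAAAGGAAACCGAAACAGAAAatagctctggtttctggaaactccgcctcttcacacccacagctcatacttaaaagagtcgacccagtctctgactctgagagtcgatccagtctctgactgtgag
Gbp3 (chr3:142559794-142560093, plus strand): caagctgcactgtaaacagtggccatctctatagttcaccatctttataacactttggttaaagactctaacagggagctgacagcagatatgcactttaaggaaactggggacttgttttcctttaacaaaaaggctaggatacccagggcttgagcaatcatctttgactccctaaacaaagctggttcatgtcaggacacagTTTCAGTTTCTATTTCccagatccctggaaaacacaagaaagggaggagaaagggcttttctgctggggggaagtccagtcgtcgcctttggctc
Gbp2 (chr3:142620413-142620712, plus strand): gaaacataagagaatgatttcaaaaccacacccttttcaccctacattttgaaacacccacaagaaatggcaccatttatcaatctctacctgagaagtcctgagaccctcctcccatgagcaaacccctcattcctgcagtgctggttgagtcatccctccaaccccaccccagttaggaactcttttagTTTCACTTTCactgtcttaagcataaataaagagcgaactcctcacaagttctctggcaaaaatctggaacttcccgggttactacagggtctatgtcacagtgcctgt
Ifit3 (chr19:34583279-34583578, plus strand): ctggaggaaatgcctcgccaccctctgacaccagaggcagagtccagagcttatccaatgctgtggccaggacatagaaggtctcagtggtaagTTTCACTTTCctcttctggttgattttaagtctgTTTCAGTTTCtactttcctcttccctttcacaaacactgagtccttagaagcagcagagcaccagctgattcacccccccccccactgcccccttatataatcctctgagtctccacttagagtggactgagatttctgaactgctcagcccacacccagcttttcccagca
Ifitm3 (chr7:141010695-141010994, minus strand): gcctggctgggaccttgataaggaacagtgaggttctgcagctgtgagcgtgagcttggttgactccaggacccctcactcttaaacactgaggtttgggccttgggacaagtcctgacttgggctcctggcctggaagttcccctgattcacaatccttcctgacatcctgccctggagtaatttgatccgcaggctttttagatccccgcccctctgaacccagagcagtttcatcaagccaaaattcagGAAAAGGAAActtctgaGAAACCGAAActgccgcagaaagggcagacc
Lgals3bp (chr11:118401910-118402209, minus strand): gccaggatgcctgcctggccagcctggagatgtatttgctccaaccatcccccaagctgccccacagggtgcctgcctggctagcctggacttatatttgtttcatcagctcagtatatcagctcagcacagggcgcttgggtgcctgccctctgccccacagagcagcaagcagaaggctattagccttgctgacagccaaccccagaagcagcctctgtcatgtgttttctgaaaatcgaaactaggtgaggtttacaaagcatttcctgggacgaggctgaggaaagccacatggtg

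The core was present in the windows of 14 of 33 members (42.4%), against 1079 of 27025 genes in the same promoter table (3.99%). The longer form of the core, with CT directly after it, was present in 8 members (24.2%) and in 82 of all genes (0.303%). The gamma-activated site, TTCNNNGAA, was present in 11 members (33.3%) and in 2582 of all genes (9.55%), and 2 of its 11 matches overlapped a core. Members held 23 core matches, of which 17 began within 150 bases before the start. In Isg15 the 3 matches overlapped each other, at positions -78, -72 and -66 relative to the start, and in Ifitm3 both lay after the start. A match describes letters in this window and is no evidence of a bound site.

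**Figure D1:**
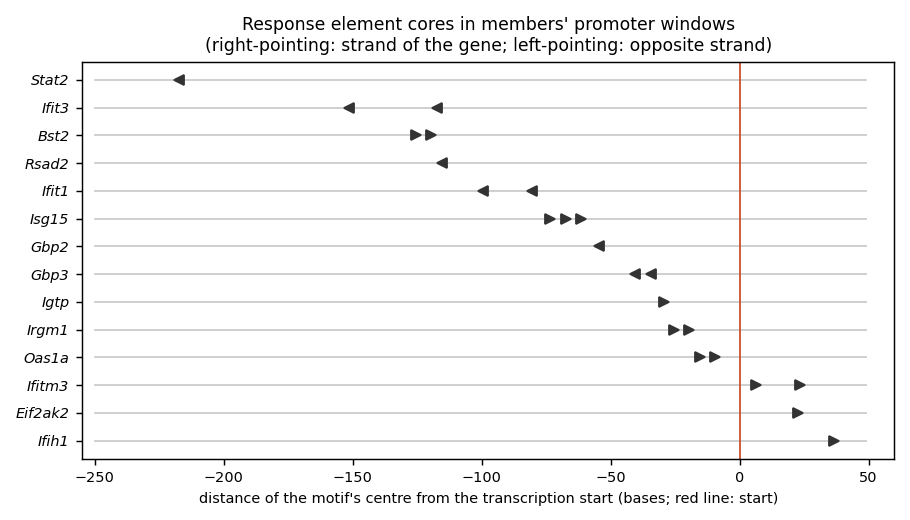
Position of each response element core (triangle, at the motif's centre) in the promoter windows of the 14 members that held it. The x axis is the distance from the transcription start in bases, and right- and left-pointing triangles mark the strand of the gene and the opposite strand; 19 of the 23 matches began before the start.

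In the thoracic aorta, AngII raised 10 of the 36 tested members and lowered none (limma, adjusted p below 0.05), while 10.5% of all genes tested passed in the upward direction. The difference was above 0 for 30 members (83.3%), against 49.6% of all genes. For 17 members (47.2%) the 3 AngII arrays all lay above the 3 Sham arrays, against 19.3% of all genes. The median log2 difference of the members was 0.26, and that of all genes tested was -0.00217. The genes that rose encode the antiviral enzyme Rsad2, the secreted glycoprotein Lgals3bp, the ISG15 pathway, IFIT3, both guanylate-binding proteins on the list, the 2 immunoproteasome subunits and Irf9.

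**Figure D2:**
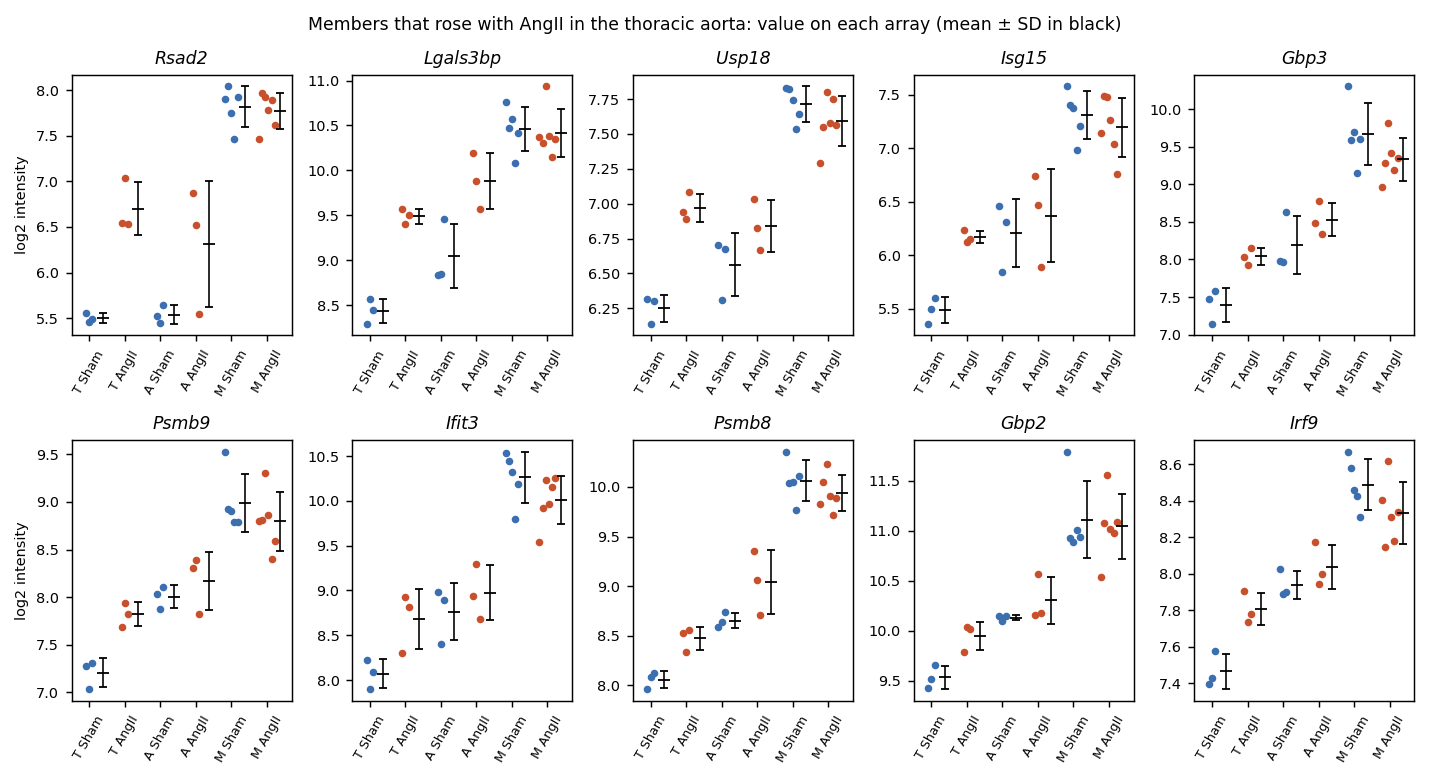
Log2 intensity (y axis) of the 10 members that rose with AngII in the thoracic aorta, on each of the 23 arrays. T, A and M stand for thoracic aorta, abdominal aorta and mesenteric arteries; points are arrays, blue for Sham and red for AngII, and black bars are mean ± SD. In the thoracic aorta the AngII arrays lay above the Sham arrays for each of the 10 genes, and in the mesenteric arteries the groups overlapped for each.

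Rsad2, which encodes viperin, a radical SAM enzyme that makes a chain-terminating nucleotide, was at 6.54, 7.04 and 6.53 log2 units on the AngII arrays and at 5.56, 5.45 and 5.49 on the Sham arrays. The groups were more than a log2 unit apart in their means. The rise was 1.20 ± 0.14 (SE, 2.30-fold, adjusted p = 0.000877). Lgals3bp, a secreted galectin-binding glycoprotein, was at 9.57, 9.40 and 9.51 with AngII and at 8.30, 8.57 and 8.45 with Sham, a rise of 1.05 ± 0.10 (2.08-fold, adjusted p = 0.000364). It was the member with the smallest p-value in this vessel. Cmpk2, the mitochondrial nucleotide kinase gene that lies next to Rsad2 in the RefSeq annotation, was at 6.55, 6.64 and 6.55 with AngII and at 6.73, 6.32 and 6.40 with Sham, and its difference of 0.10 ± 0.12 did not pass (adjusted p = 0.619).

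Both genes of the ISG15 pathway rose. Isg15, a ubiquitin-like protein that is attached to other proteins, was at 6.24, 6.13 and 6.15 with AngII and at 5.36, 5.50 and 5.60 with Sham. The rise was 0.68 ± 0.10 (1.61-fold, adjusted p = 0.00216). Usp18, the protease that removes Isg15 and damps the type I receptor, was at 6.94, 6.89 and 7.08 with AngII and at 6.31, 6.14 and 6.30 with Sham, a rise of 0.72 ± 0.10 (1.65-fold, adjusted p = 0.00179). In both genes the lowest AngII array was above the highest Sham array by more than the range within either group. A lower-signal probe of Usp18 differed by 0.27 and did not pass (adjusted p = 0.239).

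Of the 4 tested guanylate-binding proteins and immunity-related GTPases, which attack the membranes of intracellular pathogens, 2 rose. Gbp3 was at 8.04, 7.93 and 8.15 with AngII and at 7.47, 7.15 and 7.58 with Sham, a rise of 0.64 ± 0.13 (adjusted p = 0.00979), and its other tested probe also passed (0.53, adjusted p = 0.0225). Gbp2 was at 9.78, 10.04 and 10.02 with AngII and at 9.43, 9.52 and 9.66 with Sham, a rise of 0.41 ± 0.11 (adjusted p = 0.0305). Its other tested probe differed by 0.24 and did not pass (adjusted p = 0.38). The immunity-related GTPases Igtp and Irgm1 differed by 0.32 ± 0.14 and -0.05 ± 0.11 and did not pass. Probes of this family may not tell near-identical relatives apart.

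The immunoproteasome subunits Psmb9 and Psmb8, which cut peptides for presentation, flank the peptide transporter gene Tap1. Psmb9 was at 7.69, 7.94 and 7.83 with AngII and at 7.28, 7.04 and 7.30 with Sham, a rise of 0.61 ± 0.11 (1.53-fold, adjusted p = 0.00667). Psmb8 was at 8.53, 8.34 and 8.55 with AngII and at 7.96, 8.09 and 8.12 with Sham, a rise of 0.42 ± 0.10 (adjusted p = 0.0207), but its other tested probe differed by -0.06 (adjusted p = 0.727). Tap1 was at 5.41, 5.49 and 5.46 with AngII and at 5.40, 5.64 and 5.32 with Sham. Its groups overlapped, and the difference was 0.00 ± 0.10.

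Ifit3, a tetratricopeptide protein, was at 8.30, 8.93 and 8.81 with AngII and at 8.22, 7.90 and 8.10 with Sham, a rise of 0.61 ± 0.16 (adjusted p = 0.0337). A further Ifit3 probe differed by 0.27 and did not pass (adjusted p = 0.323). Its neighbour Ifit2 ran the other way without passing, at 7.35, 7.46 and 7.72 with AngII and at 7.67, 7.69 and 7.79 with Sham (-0.21 ± 0.11, adjusted p = 0.238). Irf9, the DNA-binding subunit of the type I interferon complex, was at 7.91, 7.74 and 7.78 with AngII and at 7.39, 7.43 and 7.57 with Sham, a rise of 0.34 ± 0.10 (adjusted p = 0.0396). A further Irf9 probe differed by 0.15 (adjusted p = 0.354). The other 3 transcription factors, Irf7, Irf1 and Stat2, differed by 0.26, 0.16 and 0.08 and did not pass, and the Irf7 probe was detected on no thoracic array.

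No sensor or double-stranded RNA enzyme passed on its main probe. The smallest p-value of the group was that of Trim25, a ubiquitin ligase of the RNA-sensing pathway (0.17 ± 0.09, adjusted p = 0.221). Dhx58, a helicase of the RIG-I-like family, differed by 0.09 ± 0.10 on the probe with the highest signal and by 0.43 on another, which passed (adjusted p = 0.024). Adar, which edits adenosines in double-stranded RNA, differed by -0.15 ± 0.11 (adjusted p = 0.398). Of the OAS and MX proteins, Oasl2 was at 7.45, 7.17 and 7.36 with AngII and at 6.99, 6.34 and 7.08 with Sham. These arrays did not overlap, but the difference of 0.52 ± 0.18 did not pass (adjusted p = 0.0793). Oas2, whose product makes the oligoadenylates that activate RNase L, differed by 0.51 ± 0.23 with overlapping arrays, and Mx2 by 0.00 ± 0.12. Among the other effectors that did not pass, Bst2, the tether that holds budding virus at the cell surface, differed by 0.64 ± 0.26, Ifitm3, a membrane protein that blocks viral entry, by 0.28 ± 0.09 (adjusted p = 0.061), and Sp100, a nuclear body protein, by 0.29 ± 0.10 (adjusted p = 0.0646).

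Rsad2, Lgals3bp, Usp18, Isg15 and Psmb9 passed under each of the 17 alternatives run. With the authors' normalized values their differences were 0.43, 0.87, 0.33, 0.22 and 0.38, in that order. Ifit3 lost the call under 10 of the 17 alternatives, Gbp2 under 8, Irf9 and Psmb8 under 6 each and Gbp3 under 1. For Ifit3, Gbp2, Irf9 and Psmb8 these included both single arrays left out and other alternatives. The count of members that rose was 6 without AngII array 3, 6 without Sham array 2 and 6 in a fit of all 6 groups together, and with the authors' normalized values it was 10, with a median of 0.109 in place of 0.26.

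Of the wider interferon pathway, 40 genes outside the members had a named probe and 30 were tested. Probes for the ligands Ifnb1, Ifna2, Ifna4, Ifnk, Ifng and Ifnl3 passed detection on 0 arrays, and so did the probe of the receptor subunit Ifnar1. The ligand Ifna1, of a family of near-identical copies, was detected on 1 of 3 thoracic Sham arrays and on 0 of 3 with AngII. The receptor subunits Ifnar2, Ifngr1 and Ifngr2 differed by 0.19, 0.17 and 0.21 in the thoracic aorta and did not pass. There, 5 of the 30 tested pathway genes rose, against 10.5% of all genes tested, and 1 fell, against 878 of 10955 genes. Those that rose were Ptpn6, a phosphatase abundant in blood cells (1.07 ± 0.16, adjusted p = 0.00315), the transcription factor Irf5 (0.84 ± 0.14, adjusted p = 0.00465), the DNA-sensing adaptor Sting1 (0.66 ± 0.11, adjusted p = 0.00517), the RNA receptor Tlr7 (0.50 ± 0.14, adjusted p = 0.0421) and its adaptor Myd88 (0.36 ± 0.08, adjusted p = 0.0201). Pias1, an inhibitor of STAT proteins, fell by 0.31 ± 0.09 (adjusted p = 0.0481).

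Marker lists also shifted with AngII in the thoracic aorta. Of 19 tested macrophage markers, 12 rose in the thoracic aorta, with a median log2 difference of 0.67, and their summed intensity ran from 13599 to 20548 on the AngII arrays against 9667 to 11452 on the Sham arrays. Fcgr1, a macrophage receptor for immunoglobulin, was detected on 2 of 3 AngII and 0 of 3 Sham arrays there. Fibroblast markers rose for 7 of 9 tested and smooth muscle markers fell for 5 of 11. Among all 10955 genes tested, 1154 rose and 878 fell in this vessel. Of 18 endothelial markers, 5 rose and 2 fell, and of 8 lymphocyte markers 2 rose. Adipocyte markers rose for 3 of 8 tested, with a median of 0.72 and summed intensities of 6112 to 8213 with AngII against 2928 to 5469 with Sham. Lymph node and pancreas markers rose for 2 of 6 tested, with sums of 636 to 835 against 298 to 345. The lymphocyte markers Cd3g, Cd2, Nkg7 and Ltb were detected on no thoracic AngII array. The part of these shifts in the members' rise was not tested.

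**Figure D3:**
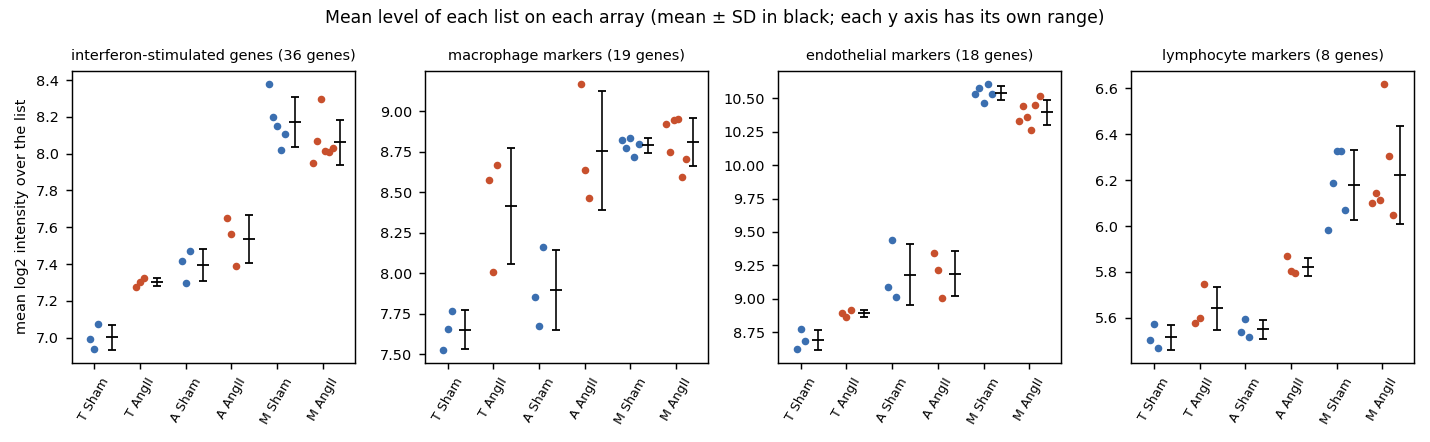
Mean log2 intensity (y axis, with its own range in each panel) of the 36 tested members and of 3 marker lists on each array. T, A and M are the 3 vessels as above; points are arrays, blue for Sham and red for AngII, with mean ± SD in black. The members' mean on thoracic AngII arrays was 7.28 to 7.32 against 6.94 to 7.07 with Sham, and the macrophage mean was 8.01 to 8.67 against 7.53 to 7.77.

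In the abdominal aorta, no member passed, in a vessel where 1.41% of all genes passed in either direction. At an unadjusted p below 0.05, 5 of 36 members were higher, against 947 of all 10955 genes tested. The difference was above 0 for 24 of 36 members (66.7%), against 45.8% of all genes, and the members' median was 0.10. That median was 0.030 without Sham array 2, 0.151 without AngII array 3, 0.027 with the authors' normalized values and 0.13, with 0 members past the threshold, without the muscle-rich array. Lgals3bp was at 10.20, 9.89 and 9.57 with AngII and at 8.83, 8.85 and 9.46 with Sham. These arrays did not overlap, and the difference of 0.84 ± 0.20 did not pass (adjusted p = 0.0975, 95% interval 0.38 to 1.29). Rsad2 was at 6.87, 6.52 and 5.55 with AngII and at 5.53, 5.45 and 5.64 with Sham, so that AngII array 3 lay inside the Sham range while arrays 1 and 2 lay far above it (0.77 ± 0.28, adjusted p = 0.235). Without AngII array 3, both genes passed, Rsad2 at 1.16 (adjusted p = 0.00533) and Lgals3bp at 0.99 (adjusted p = 0.0419), and both also passed in a fit of all 6 groups together.

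Oas2, Irf7 and Psmb8 were the other 3 members with an unadjusted p below 0.05 in this vessel. Oas2 was at 6.39, 6.31 and 5.79 with AngII and at 5.49, 5.17 and 5.89 with Sham, and here too AngII array 3 was the lowest of its group (0.64 ± 0.21, adjusted p = 0.193). Irf7, the transcription factor that amplifies type I interferon, was detected on 1 AngII array and on no Sham array, at 5.28, 4.93 and 4.86 with AngII and at 4.41, 4.40 and 4.88 with Sham. Psmb8 differed by 0.39 ± 0.16 (adjusted p = 0.289), Gbp3 by 0.34 ± 0.19 (adjusted p = 0.442) and Dhx58 by 0.29 ± 0.13 (adjusted p = 0.341). Isg15 and Usp18, which rose in the thoracic aorta, differed by 0.16 ± 0.23 and 0.28 ± 0.15, with 95% intervals of -0.35 to 0.67 and -0.05 to 0.61. Against the median ran Ifit2 (-0.26 ± 0.17) and Adar (-0.17 ± 0.11), whose 3 AngII arrays all lay below the 3 Sham arrays without passing. Of the pathway genes, Irf5 alone passed (0.81 ± 0.14, adjusted p = 0.0287), and of the macrophage markers 4 of 19 rose, with a median of 0.84 and no overlap between groups in summed intensity (19670 to 26946 with AngII, 11899 to 13682 with Sham).

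**Figure D4:**
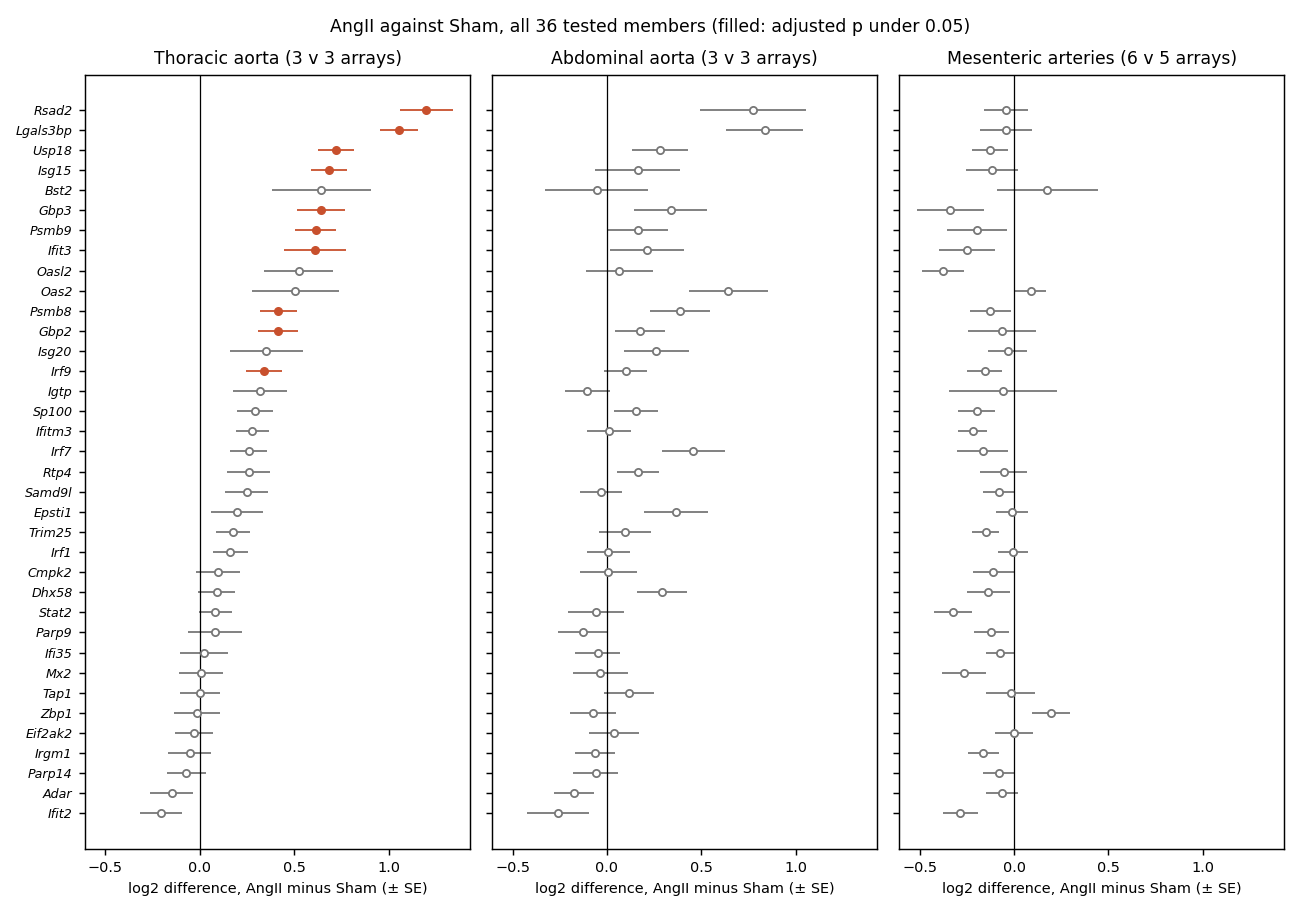
Log2 difference between AngII and Sham (x axis, ± SE) for the 36 tested members in each vessel, ordered by the thoracic value. Filled red points passed (adjusted p below 0.05): 10 thoracic, 0 abdominal and 0 mesenteric, and 32 mesenteric points lie below 0.

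In the mesenteric arteries, no member passed, while 0.31% of all genes passed in either direction. At an unadjusted p below 0.05, 5 of 36 members were lower and 0 higher, against 819 lower and 847 higher of 10955 genes. The difference was below 0 for 32 of 36 members (88.9%), against 52% of all genes, with a median of -0.11 for the members and -0.00634 for all genes. The members' median ran from -0.168 without AngII array 3 to -0.0574 without Sham array 1, and without the 3 pancreas-rich arrays it was -0.04, with 0 members past the threshold. The smallest p-value was that of Oasl2, an OAS-like protein, at 8.12 to 8.74 log2 units with AngII (median 8.48, 6 arrays) and at 8.92, 9.03, 8.55, 8.85 and 8.75 with Sham. Its groups overlapped, and the difference was -0.38 ± 0.11 (adjusted p = 0.126, 95% interval -0.62 to -0.14). Stat2, a STAT protein of the type I complex, was at 6.05 to 6.38 with AngII (median 6.17) and at 6.61, 6.84, 6.42, 6.33 and 6.40 with Sham (-0.32 ± 0.10, adjusted p = 0.143). Ifit2 differed by -0.28 ± 0.09, Mx2, a dynamin-like GTPase, by -0.26 ± 0.12 and Ifitm3 by -0.22 ± 0.08. Sp100, Psmb9, Irgm1 and Trim25 differed by -0.20, -0.19, -0.16 and -0.15. The arrays of the groups overlapped for all 36 members. Of all 10955 genes, only 170 had no overlap with AngII higher and 98 with AngII lower, so overlap was not particular to the members.

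Rsad2 was at 7.47 to 7.97 with AngII (median 7.84) and at 7.91, 8.04, 7.75, 7.46 and 7.93 with Sham, a difference of -0.04 ± 0.12 with a 95% interval of -0.29 to 0.21. Lgals3bp differed by -0.04 ± 0.14 (95% interval -0.34 to 0.25), Isg15 by -0.12 ± 0.14 (-0.41 to 0.18) and Usp18 by -0.13 ± 0.10 (-0.33 to 0.08). The 4 members above 0 were Zbp1, a sensor of Z-form nucleic acid (0.20 ± 0.10), Bst2 (0.18 ± 0.27), Oas2 (0.09 ± 0.08) and Eif2ak2, the double-stranded RNA kinase PKR (0.00 ± 0.10). For Irf9, Usp18, Oasl2, Gbp2, Sp100, Adar and Irf1, another tested probe lay above 0 while the probe used lay below it, with values of 0.01 to 0.12. Macrophage markers had 0 of 19 past the threshold, with a median of 0.04. Of 18 endothelial markers, 14 lay below 0 (median -0.12), 0 passed and 6 were lower at an unadjusted p below 0.05, and their summed intensity was 29182 to 35923 with AngII and 33421 to 37835 with Sham. All 11 smooth muscle markers lay above 0 (median 0.25), of which 0 passed and 7 were higher at an unadjusted p below 0.05, with sums of 61144 to 78124 and 54708 to 63410. The part of these shifts in the members' values was not tested.

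The thoracic and mesenteric responses were then compared directly. The difference in AngII effect between these vessels passed for 11 of 36 members, each with the thoracic effect higher, against 6.96% of all genes in that direction, and it was above 0 for 33 members (91.7%), against 50.5% of all genes. The members with the smallest p-values were Usp18 (0.85 ± 0.16, adjusted p = 0.00165), Lgals3bp (1.10 ± 0.24, adjusted p = 0.00481), Rsad2 (1.24 ± 0.28, adjusted p = 0.00587), Ifitm3 (0.50 ± 0.12, adjusted p = 0.00877) and Oasl2 (0.90 ± 0.23, adjusted p = 0.0135). Ifit3, Isg15, Gbp3, Psmb9, Irf9 and Sp100 also passed, with differences of 0.49 to 0.98. Ifitm3, Oasl2 and Sp100 passed here although neither vessel's own comparison passed for them. Other tested probes of Irf9, Ifit3, Oasl2, Usp18 and Sp100 did not pass in this comparison. Of 19 macrophage markers 10 passed in the same direction, and of the pathway genes Ptpn6, Sting1 and Irf5 were higher and the kinase Jak1 lower (-0.47 ± 0.13, adjusted p = 0.0214). The count of members was 5 without thoracic Sham array 2, 5 without the pancreas- and muscle-rich arrays, 6 without thoracic AngII array 3, 7 without thoracic AngII array 2 and 7 without thoracic Sham array 1.

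For the abdominal against the mesenteric response, no member passed, where 2.26% of all genes passed in either direction. At an unadjusted p below 0.05, 9 of 36 members were higher, against 899 of 10955 genes. Lgals3bp was nearest to passing (0.88 ± 0.24, adjusted p = 0.0598), followed by Rsad2 (0.82 ± 0.28, adjusted p = 0.138). Without abdominal AngII array 3 the count was 3, and without the pancreas- and muscle-rich arrays it was 0 here and 0 between the aortic segments. Macrophage markers passed for 9 of 19. Between the 2 aortic segments, no member's AngII effect differed past the threshold, where 0.548% of all genes did. At an unadjusted p below 0.05, 1 of 36 members, Usp18, differed (0.44 ± 0.18, 95% interval 0.06 to 0.82), against 1053 of 10955 genes. For Rsad2 the interval of that difference ran from -0.23 to 1.08 and for Lgals3bp from -0.34 to 0.78.

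Without AngII, the members were lowest in the thoracic aorta and highest in the mesenteric arteries. Of 36 tested members, 33 had Sham means that rose from thoracic aorta through abdominal aorta to mesenteric arteries, and the exceptions were Zbp1, Adar and Eif2ak2. The share of all genes in that order was not counted. In the thoracic aorta, 34 members were lower than in the mesenteric arteries and 1, Zbp1, was higher, against 26% of all genes lower, and the members' median difference was -1.20, against 0.03 for all genes tested. In the abdominal aorta, 28 members were lower than in the mesenteric arteries and 1, Zbp1, was higher, against 24% of all genes lower, with a median of -0.74. Members detected only in the mesenteric arteries could enter these counts only as lower. In a separate fit limited to the 14763 probes detected on all 23 arrays, with p-values adjusted over those probes, 27 of 29 members were lower in the thoracic and 24 in the abdominal aorta. The share of those probes that were lower was not counted. Without the pancreas- and muscle-rich arrays, 34 members were lower in the thoracic aorta (median -1.12) and 27 in the abdominal aorta (median -0.75), and Zbp1 was higher in both.

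**Figure D5:**
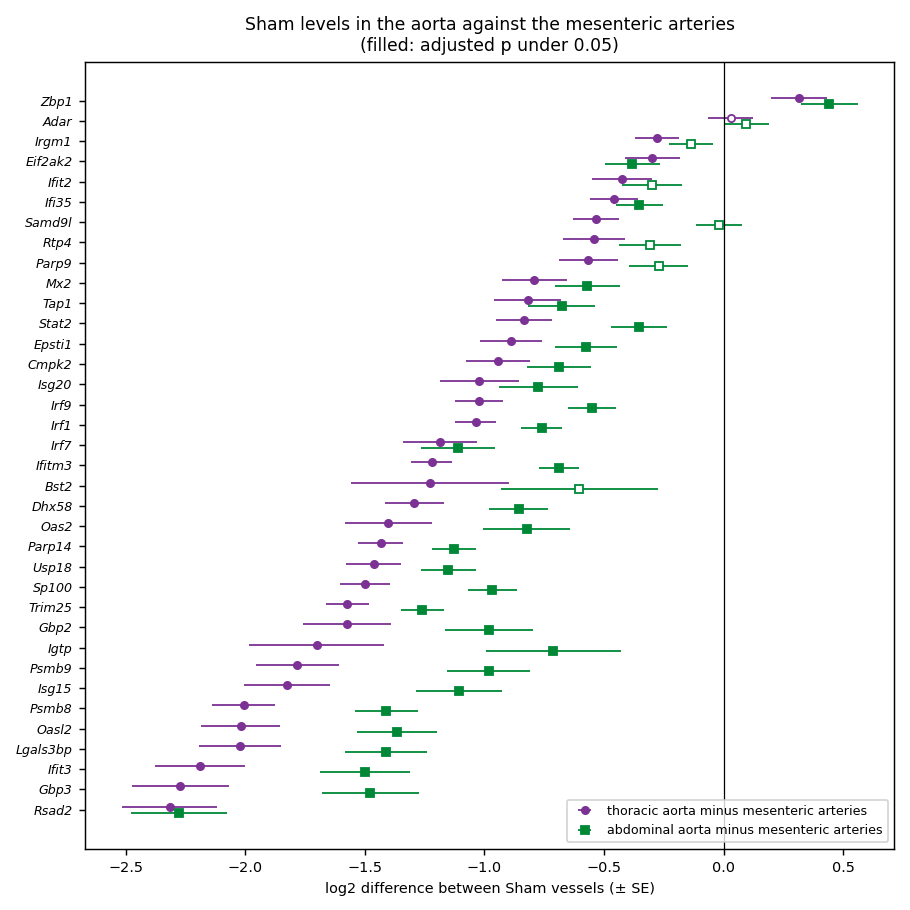
Log2 difference between Sham vessels (x axis, ± SE) for the 36 tested members, thoracic (purple circles) and abdominal aorta (green squares) each minus mesenteric arteries. Filled points passed (adjusted p below 0.05): 35 thoracic and 29 abdominal, all below 0 except Zbp1.

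Among the members, Rsad2 had the largest fitted Sham difference from the mesenteric arteries in both segments, but with the authors' normalized values it was smaller, at -1.48 and -1.26, than those of Gbp3 (-2.19 and -1.68) and Ifit3 (-2.29 and -1.85). Rsad2 was at 5.45 to 5.56 in the thoracic and 5.45 to 5.64 in the abdominal aorta, against 7.46 to 8.04 in the mesenteric arteries. The differences were -2.32 ± 0.20 (4.98-fold, adjusted p = 1.25e-09) and -2.28 ± 0.20 (4.85-fold, adjusted p = 2.97e-09), and the difference between the aortic segments was -0.04 ± 0.22. Gbp3 followed in the thoracic aorta, at 7.15 to 7.58 against 9.15 to 10.30 (-2.27 ± 0.20, 4.83-fold, adjusted p = 2.27e-09), with an abdominal difference of -1.48 ± 0.20. Ifit3 was at 7.90 to 8.22 in the thoracic aorta and at 9.80 to 10.54 in the mesenteric arteries (-2.19 ± 0.19, 4.56-fold, adjusted p = 1.20e-09), and was lower by 1.50 on the log2 scale in the abdominal aorta. The AngII arrays of the thoracic aorta, at 6.53 to 7.04 for Rsad2, 7.93 to 8.15 for Gbp3 and 8.30 to 8.93 for Ifit3, stayed below every mesenteric Sham array.

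Between the 2 aortic segments, 15 members were lower in the thoracic aorta and none higher, against 8.82% of all genes lower. The largest differences were those of Igtp (7.11 to 7.55 against 8.22 to 8.47, -0.99 ± 0.32, adjusted p = 0.0391), Psmb9 (7.04 to 7.30 against 7.88 to 8.11, -0.80 ± 0.19, adjusted p = 0.00685) and Gbp3 (-0.79 ± 0.23, adjusted p = 0.0207). The call of Igtp was lost without any 1 of the 6 arrays, and the count of members was 8 without thoracic Sham array 2, abdominal Sham array 1 or abdominal Sham array 3. It was 24 with the authors' normalized values and 10 without the array rich in skeletal muscle transcripts and the pancreas-rich arrays.

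Some members could not be measured in the aorta. Irf7 and Parp9 were detected on no thoracic array, Rtp4 on no aortic array, and Isg20 and Epsti1 on no thoracic Sham array. Set against the lowest signal that passed detection or the probe's own, Irf7 was at least 1.59-fold higher in Sham mesenteric arteries than in Sham thoracic aorta, Epsti1 at least 1.58-fold, Isg20, an exonuclease, at least 1.55-fold and Parp9, an ADP-ribosyl transferase, at least 1.31-fold. Zbp1 ran against the others, at 5.88 to 6.03 in the thoracic and 5.92 to 6.28 in the abdominal aorta and at 5.46 to 5.92 in the mesenteric arteries (0.32 ± 0.12 and 0.44 ± 0.12, adjusted p = 0.029 and 0.00382). With the authors' normalized values, however, its differences were -0.20 and 0.020. Neither call held with neqc within each vessel (0.076 and 0.16), a setting that does not normalize the vessels to each other. The thoracic call was also lost with cyclic loess (0.22), without thoracic Sham array 1 or 3, and without mesenteric Sham array 2 or 5. Adar did not pass on its main probe (0.03 ± 0.09), while 2 other tested probes were lower in the thoracic aorta (-0.30 and -0.57, adjusted p = 0.0398 and 0.000965).

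The marker lists also differed between Sham vessels. All 18 tested endothelial markers were lower in both aortic segments than in the mesenteric arteries, with medians of -1.74 and -1.25, and 9 were lower in the thoracic than in the abdominal aorta. Of 19 macrophage markers, 17 and 16 were lower, with medians of -1.18 and -1.02, and their summed intensity was 22942 to 27116 in the mesenteric arteries against 9667 to 11452 in the thoracic aorta. Of 8 lymphocyte markers, 7 and 6 were lower and 1 was higher in each segment. Fibroblast markers were lower for 6 of 9 in each segment (medians -1.16 and -0.38), adipocyte markers for 5 of 8 in each (medians -1.39 and -1.62), and dendritic cell markers for 4 of 5 in each (medians -0.89 and -0.59). Another 2 adipocyte markers were higher in the thoracic aorta. Of 11 smooth muscle markers, 8 were higher and 2 lower in the thoracic aorta, and 7 were higher and 2 lower in the abdominal aorta. Of all 10955 genes, 2966 and 2609 were higher than in the mesenteric arteries. The part of these shifts in the members' levels was not tested.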

How the data were processed

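Arrays were Illumina mouse beadchips (WG-6 v2.0), 1 per pool. The deposited intensities were probe summaries from the scanner software on a linear scale, not normalized, each with a deposited detection p-value. The authors' deposited normalized log2 values, made with lumi and limma in R 3.0.2 per the submitters' processing notes and the methods, served as an alternative. Each intensity column ranked the probes as exactly 1 deposited array of its labelled group did, and 0 columns belonged to no sample.

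The intensities were background corrected, quantile normalized over all 23 arrays and put on the log2 scale with neqc (offset 16, limma 3.58.1, R 4.3.3). Of 45281 probes, 20585 had a detection p-value under 0.01 on at least 3 arrays and entered the tests. AngII and Sham were compared in a fit of each vessel's own arrays, and vessels and differences in AngII effect in 1 fit of all 6 groups, with lmFit and eBayes. All tests were two-sided, and p-values were adjusted over all tested probes (Benjamini-Hochberg). The threshold was an adjusted p of 0.05. A gene was represented by its tested probe with the highest mean signal. Of the probes, 34885 carried 1 gene symbol, 18 several and 10378 none. The procedure was tested on simulated data. P-values measure the spread between pools, and the number of arrays limits the precision.

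The members and lists were chosen with earlier results of these data known. Named members were, per AngII comparison and role, up to 3 of those that passed with the smallest p-values or else the 1 with the smallest, the 2 that most clearly ran against the median, up to 5 per difference in effect, the 3 largest Sham differences per direction, and members whose probes differed or were not detected. Other genes were chosen after their values were seen. A group whose probe was detected on no array was given as a bound, taking on each array the higher of the lowest detected signal and the probe's own. Alternatives changed the values, background correction, normalization, filter, probe, prior, arrays in the fit and pairing.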

Additional observations from a re-analysis of the deposited data

Results flagged for a closer look

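Among the named members in the mesenteric groups, the groups with over 3 arrays, 46 groups were searched for an array far from the rest, and 5 held one, where chance gives about 1 in 20. In mesenteric Sham array 1, which was rich in pancreatic transcripts, Gbp2 was at 11.79 (next highest 11.01), Psmb9 at 9.53 (next 8.93) and Igtp at 10.20 (next 8.93). Lgals3bp was at 10.93 on mesenteric AngII array 3 (next 10.39). Sp100 was at 7.50 on mesenteric Sham array 5, below the next lowest of 7.89.

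The AngII effect differed between the thoracic aorta and the mesenteric arteries for 11 of 36 members, by limma's test of the difference itself. Each was higher in the thoracic aorta, against 6.96% of all genes in that direction. The count was 5 without the pancreas- and muscle-rich arrays. The list was chosen with earlier results of these data known, so this count gives no independent support. The differences were 0.50 for Irf9, 0.86 for Ifit3, 0.90 for Oasl2, 0.80 for Isg15, 0.85 for Usp18, 1.24 for Rsad2, 0.50 for Ifitm3, 0.98 for Gbp3, 0.81 for Psmb9, 0.49 for Sp100 and 1.10 for Lgals3bp.

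Of the members' probes left out of the tests, one of Adar was detected on 1 AngII array and one of Trim25 on 2 AngII arrays, and both on 0 Sham arrays.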

How the results depend on the processing

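Of 990 alternative values for 51 named results, 930 kept their direction and side of the threshold, 53 lost the call, 5 gained it and 2 reversed. Zbp1 reversed between Sham thoracic aorta and mesenteric arteries, at -0.20 with the authors' values and -0.21 with the replicate block, and its call for the abdominal aorta was lost with the authors' values (0.020), with the replicate block (0.0044) and with neqc within each vessel (0.16). The cause was not tested here or for the changes that follow. With 1 fit over all groups, 6 members passed in the thoracic and 2 in the abdominal aorta. The thoracic against mesenteric count was 7 with the authors' values, 7 without the filter on dim transcripts and 5 without the arrays rich in pancreatic or skeletal muscle transcripts. The abdominal against mesenteric count was 1 over transcripts detected on all 23 arrays and 1 with a prior that follows the signal. The count between Sham aortic segments was 24 with the authors' values.

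The authors' values gave medians of 0.109 for the thoracic AngII effect, 0.170 and 0.104 for the thoracic and abdominal effects against the mesenteric one, and -0.991 for Sham thoracic aorta against mesenteric arteries. The last was -1.37 with neqc within each vessel, -1.02 without the filter and -1.07 with the mean of all probes, and the thoracic median was 0.186 without the filter. Neqc within each vessel does not normalize the vessels to each other. Its differences between vessels, here and for Zbp1, can therefore hold offsets between arrays. For Sham abdominal aorta against mesenteric arteries the median was -0.90 without further background correction and -1.02 with neqc within each vessel, and between aortic segments it was -0.473 over transcripts detected on all 23 arrays.

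Leaving out each array in turn gave counts of 6 to 9 in the thoracic aorta, 0 to 2 in the abdominal aorta, 5 to 12 and 0 to 3 for their effects against the mesenteric one, and 8 to 14 between Sham aortic segments, where the median ran from -0.455 to -0.329.

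Correlations did not settle whether the title numbers pair the samples. Over 11 pairs, deviations of same-numbered AngII and Sham arrays correlated at -0.56 to 0.86, 6 of them over 0.1, and 6 pairs correlated best with their own number. With the number as a replicate block on the authors' values, the medians were 0.109 (thoracic), 0.147 and 0.101 (thoracic and abdominal against mesenteric) and -1.03 (Sham thoracic against mesenteric), and the Sham aortic count was 23. Slide as a block was not run because the files name no slides.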
